A study of Mus musculus with 6 samples.

Results

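The transcription factors Runx1, Gata2, Tal1, Lmo2, Lyl1, Gfi1, Gfi1b, Myb, Spi1 and Mecom, which act in blood stem cells, were followed in tissue next to the dorsal aorta of the mouse embryo. They were chosen by gene symbol, and all 10 had 1 probe set each among the 24675 named genes of the array. Tissue under the aorta (ventral) and tissue between notochord and aortic roof (dorsal) was cut by laser microdissection from C57Bl/6 embryos at embryonic day 10.5. The series names it as the niche around emerging blood stem cells, and the comparison asks whether the factors differ between its ventral and dorsal side. Each region gave 3 samples and 1 Affymetrix mouse Gene 2.0 ST array per sample. All embryos were untreated as far as the labels say, each embryo supplied both regions, and the number of embryos or sections per sample is not stated. The regions were cut by position, and no label states whether the aortic wall itself was taken.

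Blood stem cells form in the embryo when endothelial cells of the aorta, mainly in its floor, turn round and bud into the lumen. Runx1 is required for that step and Gata2 for the formation and upkeep of the emerging cells. Tal1 and Lyl1 are related basic helix-loop-helix proteins that bind DNA with E proteins and are joined by the LIM-only bridge Lmo2 to GATA factors. Gfi1 and Gfi1b are zinc finger repressors that act downstream of Runx1 and shut off the endothelial programme. Myb is needed for definitive blood, Spi1 (PU.1) drives myeloid and lymphoid fates, and Mecom (Evi1) maintains stem cells.

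None of the 10 factors passed the test of ventral against dorsal tissue, with a threshold at an adjusted p of 0.05 in limma over all 24675 genes. Signals are given as log2 RMA values, and differences are ventral minus dorsal. Tal1, Spi1 and Gfi1b had the smallest unadjusted p of the factors with a negative difference, and Gata2 had the largest positive difference, 0.32. Limma called 0 of 10 factors and 0 of 24675 genes (0%), and 1 factor, Tal1, had an unadjusted p under 0.05, where 10.2% of all genes did. Tal1 was lower in ventral tissue, as were 5.90% of all genes at that level, and 0 factors were higher at that level, against 4.32% of all genes. Without the replicate block 0 factors had an unadjusted p under 0.05, against 11.2% of all genes.

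One value per gene covers all start sites of that gene. Tal1 and Runx1 each have 2 start regions in the RefSeq table of GRCm38.p6, which the probe sets do not tell apart, and Gfi1b has 1. These are shown because Tal1 had the smallest p, because the groups did not overlap for Gfi1b, and because Runx1 is the factor that defines the process. Each window holds 300 bases around a start, most of them before it. Capitals mark 4 motifs on either strand, each searched as 1 exact run of letters: the GATA motif AGATAA, the Tal1 E-box CAGATG, the RUNX motif TGTGGT and the PU.1 motif GAGGAA.
Tal1 first window, chr4:115056176-115056475, strand +: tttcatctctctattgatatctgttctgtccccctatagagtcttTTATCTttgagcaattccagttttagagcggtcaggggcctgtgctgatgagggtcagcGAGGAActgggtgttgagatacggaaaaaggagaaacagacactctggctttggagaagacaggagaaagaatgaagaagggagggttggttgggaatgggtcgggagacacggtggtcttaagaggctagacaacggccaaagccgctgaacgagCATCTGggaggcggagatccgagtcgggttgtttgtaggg
Tal1 second window, chr4:115057561-115057860, strand +: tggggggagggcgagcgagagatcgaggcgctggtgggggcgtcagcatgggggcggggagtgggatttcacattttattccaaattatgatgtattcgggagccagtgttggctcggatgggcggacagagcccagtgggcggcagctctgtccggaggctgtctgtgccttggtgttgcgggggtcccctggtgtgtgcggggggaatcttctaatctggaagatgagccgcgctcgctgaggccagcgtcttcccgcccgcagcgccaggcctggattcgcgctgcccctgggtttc
Gfi1b, chr2:28621933-28622232, strand -: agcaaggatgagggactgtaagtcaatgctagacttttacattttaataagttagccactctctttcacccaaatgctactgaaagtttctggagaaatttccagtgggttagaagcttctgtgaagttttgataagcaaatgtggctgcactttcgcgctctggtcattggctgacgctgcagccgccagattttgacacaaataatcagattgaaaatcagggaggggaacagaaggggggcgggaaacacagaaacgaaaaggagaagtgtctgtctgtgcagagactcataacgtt
Runx1 distal window, chr16:92826025-92826324, strand -: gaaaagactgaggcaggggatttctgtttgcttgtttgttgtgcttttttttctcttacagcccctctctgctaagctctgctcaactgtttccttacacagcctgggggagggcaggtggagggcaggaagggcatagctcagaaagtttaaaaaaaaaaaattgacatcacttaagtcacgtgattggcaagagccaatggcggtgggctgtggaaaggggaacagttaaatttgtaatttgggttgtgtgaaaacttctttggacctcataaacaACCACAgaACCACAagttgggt
Runx1 proximal window, chr16:92697280-92697579, strand -: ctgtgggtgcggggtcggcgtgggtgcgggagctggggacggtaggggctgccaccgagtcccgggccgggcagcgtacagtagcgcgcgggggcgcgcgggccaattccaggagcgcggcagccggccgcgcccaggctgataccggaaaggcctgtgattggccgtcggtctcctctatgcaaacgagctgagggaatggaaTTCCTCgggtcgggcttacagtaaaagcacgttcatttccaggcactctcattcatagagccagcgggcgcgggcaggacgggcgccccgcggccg

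The first Tal1 window held 1 GATA motif, 1 PU.1 motif and 1 Tal1 E-box, and the second held none of the 4. The Gfi1b window held none of these 4 exact runs. It holds TGATAA, which differs from the searched GATA motif only in its first letter, and such variants were not searched. The distal Runx1 window held 2 RUNX motifs near its start site, and the proximal one held 1 PU.1 motif. Windows were listed for 8 of the 10 factors, 13 windows in all, of which 1 held the GATA motif, 3 the Tal1 E-box, 1 the RUNX motif and 3 the PU.1 motif. Of all 32851 windows of 300 bases, 11.2% held the GATA motif, 17.2% the Tal1 E-box, 16.8% the RUNX motif and 28.3% the PU.1 motif. A match is a stretch of letters, not a binding site.

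Most of the factors gave weak signals. Array medians were 3.20 to 3.24 in the ventral and 3.24 to 3.27 in the dorsal arrays. Gata2, Tal1 and Gfi1b exceeded the array median in all 6 arrays, Myb and Mecom in none, and the other 5 in some. Probe sets differ in how strongly they bind, so the 10 signals are not ranked against each other. As a mark of the level reached without the transcript, 1379 olfactory, vomeronasal and trace amine receptor genes were used, which have little transcript in trunk tissue. The median signal of these genes was 2.52 to 2.63 in the ventral and 2.62 to 2.67 in the dorsal arrays. Every factor but Lmo2, Lyl1 and Myb exceeded that median in all 6 arrays. Lyl1 fell under it only in dorsal array 2 and Myb only in dorsal array 3, while Lmo2 exceeded it only in dorsal array 2. The 95th percentile of the receptor signals was 4.77, 4.86 and 4.96 in ventral arrays 1, 2 and 3, and 4.71, 4.61 and 4.62 in dorsal arrays 1, 2 and 3. Between 5.61% and 7.08% of all genes exceeded it in the ventral arrays, and between 7.28% and 8.48% in the dorsal arrays. Gfi1b exceeded it in 6 of 6 arrays and the other 9 factors in 0. None of the 10 exceeded the 99th percentile in any array. A signal under these levels does not show that a transcript is absent, and it can hide a difference between the regions.

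**Figure D1:**
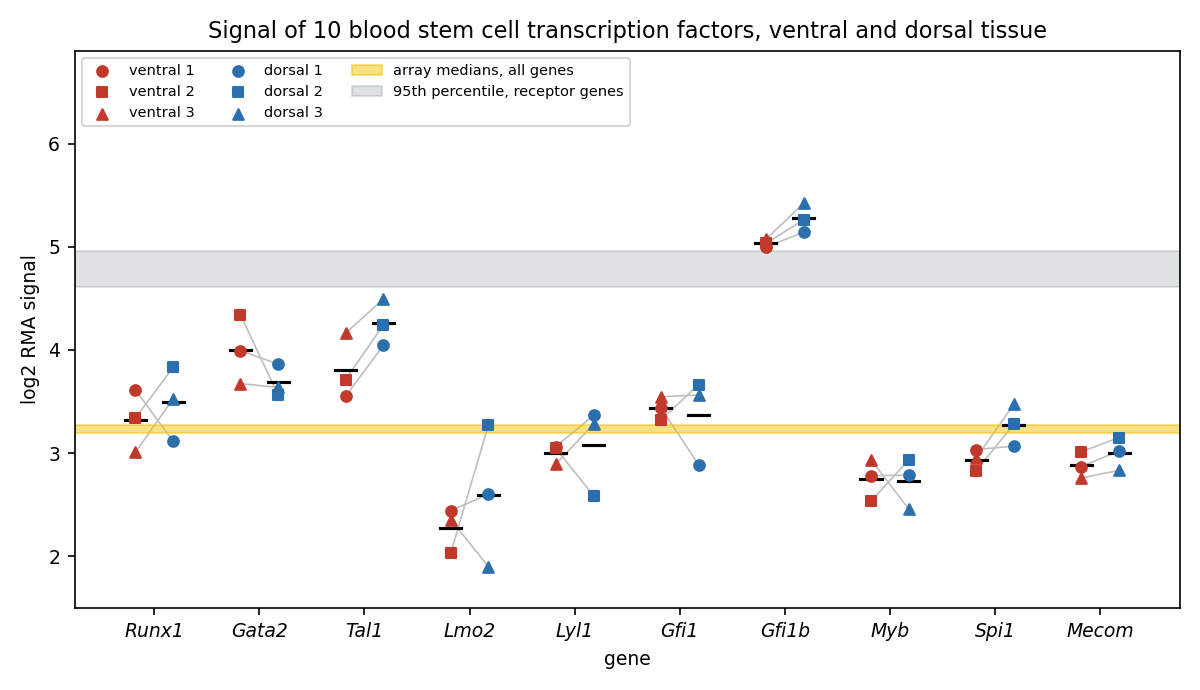
Log2 RMA signal of the 10 factors (vertical axis) in each ventral array (red) and dorsal array (blue), with symbols for array numbers, black bars for means and grey lines joining arrays of equal number. The yellow band spans the array medians and the grey band the 95th percentiles of receptor genes; only Gfi1b lies above the grey band, and its ventral and dorsal values do not overlap.

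Among the factors that start the process, neither Runx1 nor Gata2 separated the regions. Runx1 was at 3.61, 3.34 and 3.01 in ventral arrays 1, 2 and 3, against 3.11, 3.83 and 3.53 in dorsal arrays 1, 2 and 3. The groups overlapped, with the lowest value in ventral array 3 and the highest in dorsal array 2, and the pair numbered 1 ran against the other pairs. Its means were 3.32 ± 0.30 in ventral and 3.49 ± 0.36 in dorsal tissue (SD, n = 3 each). The difference was -0.17 ± 0.26 (SE), with a 95% interval from -0.81 to 0.47 and a limma adjusted p of 0.823. Gata2 was at 3.99, 4.34 and 3.67 in ventral arrays 1, 2 and 3, against 3.86, 3.56 and 3.64 in dorsal arrays 1, 2 and 3. It was higher in the ventral array of each pair, but ventral array 3 lay below dorsal array 1, so the groups overlapped. Its means were 4.0 ± 0.33 in ventral and 3.69 ± 0.16 in dorsal tissue (SD, n = 3 each). The difference was 0.32 ± 0.21 (SE), with a 95% interval from -0.21 to 0.85 and a limma adjusted p of 0.622.

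Tal1, which with Lmo2 and GATA factors specifies blood from mesoderm, was at 3.55, 3.71 and 4.16 in ventral arrays 1, 2 and 3, against 4.04, 4.24 and 4.49 in dorsal arrays 1, 2 and 3. It was lower in the ventral array of each pair, by 0.49, 0.53 and 0.33, and the groups overlapped through ventral array 3, which lay above dorsal array 1. Its means were 3.81 ± 0.32 in ventral and 4.26 ± 0.23 in dorsal tissue (SD, n = 3 each). The difference was -0.45 ± 0.17 (SE), with a 95% interval from -0.87 to -0.03 and a limma adjusted p of 0.474. Its interval excluded 0, the only one of the 10 to do so, at a per-gene level that takes no account of the number of genes tested. The unadjusted limma p was 0.0381 with the block and 0.0687 without it. No factor was under 0.05 after median centring (lowest 0.0511), with a prior variance by mean level (lowest 0.0589), or without both arrays of any 1 number (lowest 0.0716). The lowest unadjusted limma p of a factor was under 0.05 with cyclic loess (0.0340), array weights (0.0379) and the filter on genes under the median (0.0491). With no replicate block it was also under 0.05 without ventral replicate 3 (0.0215, Tal1), dorsal replicate 1 (0.0375, Spi1) or dorsal replicate 3 (0.0384, Lmo2). It was not without ventral replicate 1 (0.102), ventral replicate 2 (0.165) or dorsal replicate 2 (0.0827). With all arrays and the block, Tal1 ranked 1981 of the 24675 genes by p.

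Its paralogue Lyl1, which can stand in for Tal1 in adult stem cells, was at 3.06, 3.04 and 2.89 in ventral arrays 1, 2 and 3, against 3.36, 2.59 and 3.28 in dorsal arrays 1, 2 and 3. Dorsal array 2 held the lowest and dorsal array 1 the highest value, so the ventral arrays lay inside the dorsal range. The Lyl1 difference was -0.08 ± 0.23 (SE), with a 95% interval from -0.64 to 0.49 and a limma adjusted p of 0.915. Lmo2, the bridge of the complex, was at 2.44, 2.03 and 2.36 in ventral arrays 1, 2 and 3, against 2.60, 3.28 and 1.90 in dorsal arrays 1, 2 and 3. The dorsal arrays spanned more than the ventral ones and enclosed them. Lmo2 lay under the receptor median in every array but dorsal array 2, so its difference describes a dim probe set. The Lmo2 difference was -0.32 ± 0.34 (SE), with a 95% interval from -1.15 to 0.52 and a limma adjusted p of 0.75, the widest interval of the 10.

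Of the repressors, Gfi1b was at 5.0, 5.03 and 5.07 in ventral arrays 1, 2 and 3, against 5.14, 5.26 and 5.42 in dorsal arrays 1, 2 and 3. All ventral arrays lay below all dorsal arrays, and it was lower in the ventral array of each pair. Its means were 5.03 ± 0.04 in ventral and 5.28 ± 0.14 in dorsal tissue (SD, n = 3 each). The difference was -0.24 ± 0.17 (SE), with a 95% interval from -0.66 to 0.17 and a limma adjusted p of 0.629. As a ratio of ventral to dorsal signal the interval ran from 0.634 to 1.13. Gfi1, the paralogue that marks emerging cells in the aortic wall, was at 3.44, 3.32 and 3.55 in ventral arrays 1, 2 and 3, against 2.89, 3.66 and 3.56 in dorsal arrays 1, 2 and 3. Dorsal array 1 was the lowest and the other 2 dorsal arrays the highest, so the groups overlapped. The Gfi1 difference was 0.06 ± 0.23 (SE), with a 95% interval from -0.49 to 0.62 and a limma adjusted p of 0.929.

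Spi1 was at 3.03, 2.83 and 2.95 in ventral arrays 1, 2 and 3, against 3.07, 3.28 and 3.47 in dorsal arrays 1, 2 and 3. All ventral arrays lay below all dorsal arrays, but ventral array 1 and dorsal array 1 differed by 0.03. Measured from their array medians these 2 were nearly equal, at -0.175 and -0.173. Its means were 2.94 ± 0.11 in ventral and 3.27 ± 0.20 in dorsal tissue (SD, n = 3 each). The difference was -0.34 ± 0.19 (SE), with a 95% interval from -0.80 to 0.13 and a limma adjusted p of 0.565. Mecom was at 2.87, 3.01 and 2.76 in ventral arrays 1, 2 and 3, against 3.02, 3.15 and 2.83 in dorsal arrays 1, 2 and 3, lower in the ventral array of each pair with overlapping groups. The Mecom difference was -0.12 ± 0.17 (SE), with a 95% interval from -0.53 to 0.29 and a limma adjusted p of 0.802. Myb was at 2.78, 2.53 and 2.94 in ventral arrays 1, 2 and 3, against 2.79, 2.93 and 2.46 in dorsal arrays 1, 2 and 3, and its pairs ran both ways. The Myb difference was 0.03 ± 0.22 (SE), with a 95% interval from -0.53 to 0.58 and a limma adjusted p of 0.973. Mecom and Myb lay under the array median throughout, so their differences describe dim probe sets.

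Of the 10 factors 7 had a negative difference, where 58.0% of all genes did, and their median was -0.15 against -0.06 over all genes. The groups did not overlap in 2 factors with ventral lower (12.0% of all genes) and in 0 with ventral higher (6.74%). Tal1, Gfi1b, Spi1 and Mecom were lower in the ventral array of all 3 pairs (21.8% of all genes), Gata2 was higher in all 3 (13.3%), and the other 5 were mixed. Fewer cells of a type and less RNA per cell cannot be told apart in such tissue samples. The half-width of the 95% interval ran from 0.41 to 0.83 on the log2 scale over the 10 factors. The factors varied more among dorsal arrays, with a larger SD there for 8 of 10, and 66.0% of all genes did so too.

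**Figure D2:**
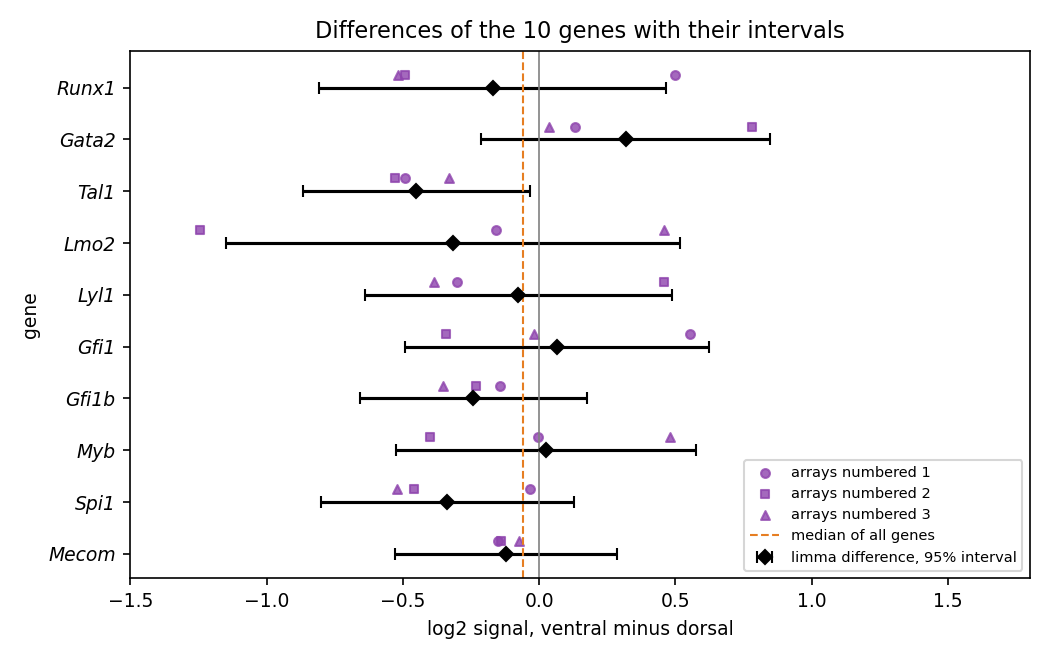
Difference in log2 signal, ventral minus dorsal, for each factor: diamonds and bars are limma differences with 95% intervals, purple symbols the differences within arrays of equal number, and the dashed line the median of all genes (-0.06). The interval of Tal1 ends at -0.03, and the other 9 intervals include 0.

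Genes related to the factors were read from lists chosen by function, and none of their members passed the threshold. Of 17 measured paralogues 5 had a positive and 12 a negative difference, with a median of -0.06. The smallest p belonged to Tal2, the third relative of Tal1 and Lyl1 (-0.48 ± 0.22, SE), and to Gata6, a GATA factor of mesoderm and endoderm (0.45 ± 0.24). Gata4 (-0.06) and Lmo4 (-0.28) are named for their signal. The limma adjusted p, taken over all genes, lay between 0.516 and 0.980 across the 17 paralogues.

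Of 24 partners and cofactors 11 had a positive and 13 a negative difference, with a median of -0.03. Ldb1, the dimerising protein that binds Lmo2 in the Tal1 complex, was at 4.84, 4.71 and 5.26 in ventral arrays 1, 2 and 3, against 5.01, 5.36 and 5.78 in dorsal arrays 1, 2 and 3. Its difference was -0.45 ± 0.19 (limma adjusted p 0.490), and the groups overlapped through ventral array 3. Ctbp2, a corepressor, had 0.58 ± 0.21 (limma adjusted p 0.472), and Hdac2, a deacetylase recruited by Gfi1 and Gfi1b, -0.16 ± 0.23. Of this list 1 gene of 24, Ctbp2, had an unadjusted p under 0.05, where 10.2% of all genes did.

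Of 23 other blood transcription factors 10 had a positive and 13 a negative difference, with a median of -0.11. Hoxb4, a Hox gene that expands stem cells when forced on, had -0.49 ± 0.19 and Ikzf2, a relative of Ikaros, -0.59 ± 0.24. Fli1, an ETS factor of endothelium and blood (0.29 ± 0.25), and Zbtb16 (0.18 ± 0.21) are named for their signal. The limma adjusted p of these 4 genes lay at 0.484 or above.

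Genes that mark blood and vessel cells also mostly lay under the receptor level. Of 19 surface and signalling proteins of blood cells 5 had a positive and 14 a negative difference, with a median of -0.11, and none exceeded the receptor level in all arrays. Kit, the stem cell factor receptor, averaged 3.56 in ventral and 3.66 in dorsal tissue, Ptprc (CD45) 2.83 and 3.09, and Itga2b (CD41) 3.47 and 3.56, the 3 named for their known role after their values were seen. Procr, a stem cell surface protein, had -0.51 ± 0.20, Cd48 0.51 ± 0.17, Csf2rb, a cytokine receptor chain, 0.70 ± 0.30, and Rac2, a blood cell GTPase, -0.34 ± 0.18. Of 18 endothelial markers 7 were positive and 11 negative, with a median of -0.05, and 0 exceeded the receptor level in any array. Plvap, a protein of endothelial diaphragms, had -1.0 ± 0.20 (limma adjusted p 0.384), Sox7 -0.61 ± 0.25, Egfl7 0.06 and Sox18 -0.21. The defining markers Pecam1, Cdh5 and Ptprc were under the receptor level in every array, and these signals do not show how many endothelial or blood cells the samples held.

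**Figure D3:**
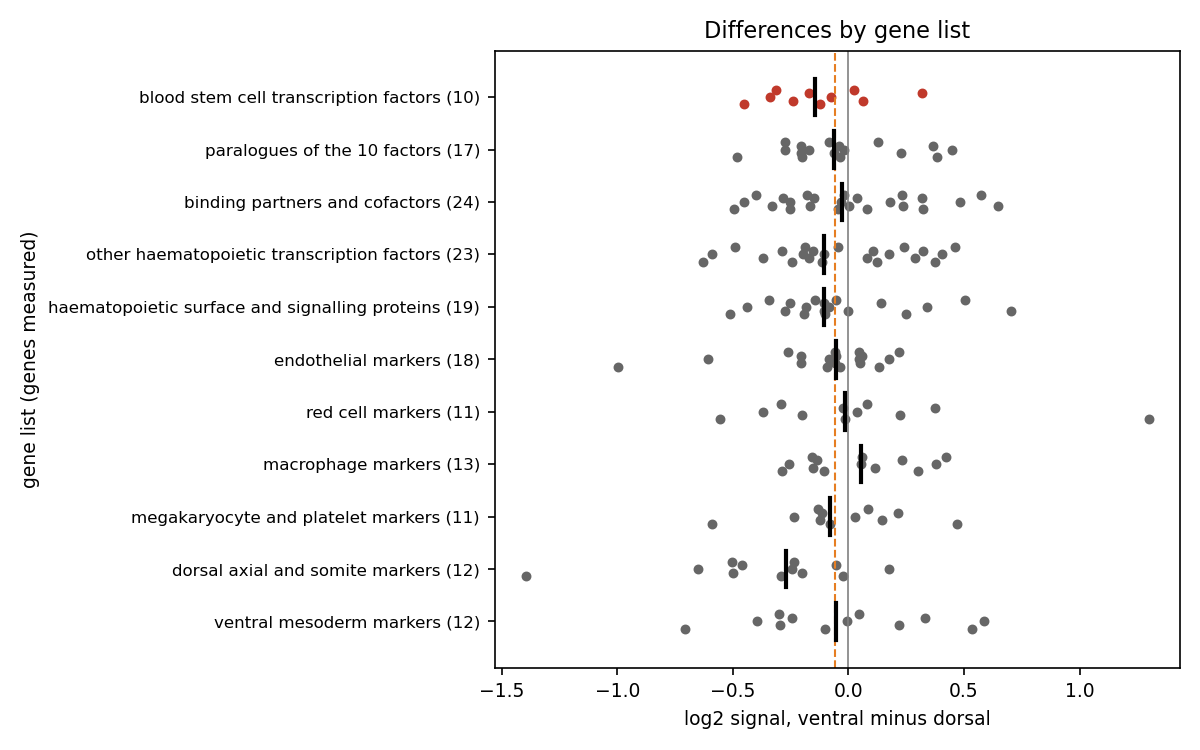
Difference in log2 signal, ventral minus dorsal, for every measured gene (points) of the 10 factors (red, top row) and of 10 lists of related genes or cell markers, with black bars for list medians and a dashed line for the median of all genes (-0.06). The factors lie between -0.45 and 0.32, inside the spread of the other lists.

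Globin transcripts of red cells gave signals far above the array medians. Hba-x, the embryonic alpha-like globin, was at 7.08, 10.17 and 12.11 in ventral arrays 1, 2 and 3, against 9.41, 9.70 and 11.12 in dorsal arrays 1, 2 and 3, and it differed by -0.29 ± 0.63. Ventral array 1 held the lowest value and ventral array 3 the highest. The mean signal of the 11 measured red cell markers ran from 4.90 to 6.63 in the ventral and from 5.35 to 6.47 in the dorsal arrays, so the groups overlapped, and 4 of the 11 exceeded the receptor level in all arrays. Those were the globins Hba-x, Hbb-y, Hbb-bh1 and Hbb-bt, while Alas2, a haem enzyme of red cells also named after its values were seen, averaged 3.61 in ventral and 3.53 in dorsal tissue. Hbb-bs had the smallest p (1.30 ± 0.18 with the replicate block, limma adjusted p 0.256), though its groups overlapped, and Hbb-y had -0.37 ± 0.35.

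Tal1 and Gfi1b are also expressed in red cell precursors, and within each region their arrays stood in the same order as those of Hba-x, seen after the values were known. In the ventral arrays Hba-x, Tal1 and Gfi1b were all lowest in array 1 and highest in array 3, and likewise in the dorsal arrays. Of all genes 3.61% had that order in both regions, and of the 10 factors 2 did. In the ventral arrays Gfi1b ran only from 5.0 to 5.07. The order did not hold across the regions, as ventral array 3 had the highest Hba-x signal of the 6 arrays. Its Gfi1b signal, 5.07, lay below every dorsal array, and its Tal1 signal, 4.16, below dorsal arrays 2 and 3 (4.24 and 4.49). The part of red cell RNA in the Tal1 and Gfi1b signals was not tested.

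**Figure D4:**
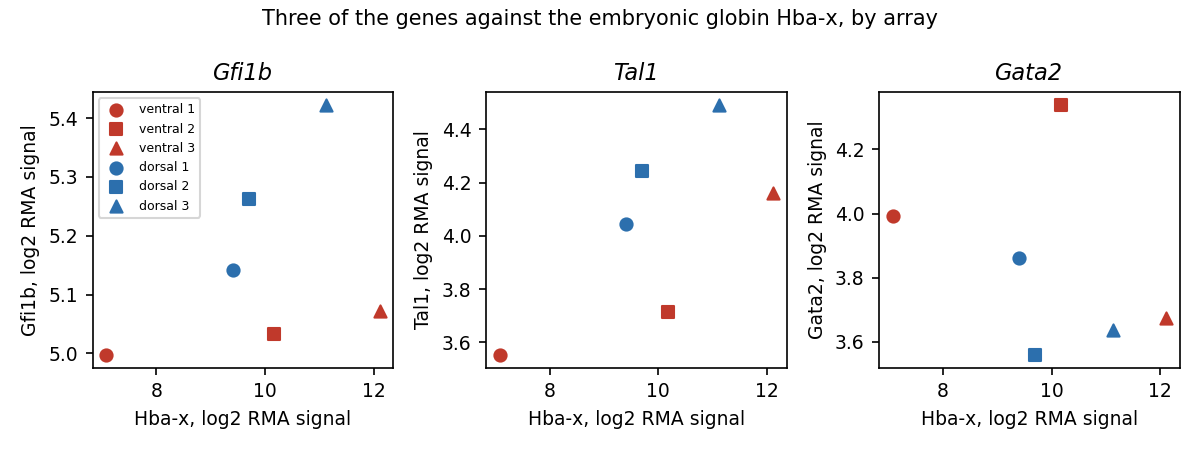
Log2 signal of Gfi1b, Tal1 and Gata2 (vertical axes) against that of the embryonic globin Hba-x (horizontal axis) in each array, ventral in red and dorsal in blue. Within each region Gfi1b and Tal1, picked after their values were seen, are ordered as Hba-x is, as are 3.61% of all genes. Gata2 is among the factors that are not, and across the regions the order does not hold. Ventral arrays 1 and 3 lie outside the range of Hba-x in the dorsal arrays.

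Spi1 and Gfi1b are also used by macrophages and megakaryocytes, whose markers are given beside them. Of 13 macrophage markers 7 had a positive and 6 a negative difference, with a median of 0.05, and their summed log2 signal ran from 46.0 to 49.5 in the ventral and from 45.2 to 48.5 in the dorsal arrays. Cx3cr1, a chemokine receptor of macrophages, was the 1 marker above the receptor level in all arrays (0.38 ± 0.18), C1qa had -0.29 ± 0.17 and C1qb 0.11 ± 0.29. Of 11 megakaryocyte markers 5 were positive and 6 negative, with a median of -0.08, and their summed signal ran from 37.8 to 40.2 in the ventral and from 38.3 to 40.2 in the dorsal arrays. Gp6, the platelet collagen receptor, had -0.59 ± 0.18, Mpig6b 0.47 ± 0.17, Pf4 -0.08 ± 0.42 and Gp9 0.03 ± 0.20. Their part in the Spi1 and Gfi1b signals was not tested.

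By root mean square distance between array profiles, each centred on its own mean, the genes closest to Gfi1b among 159 list genes over 6 arrays were Cd14 at 0.06, Csf1r at 0.07 and Hlf at 0.10 log2 units. Their mean signals were 3.02, 3.50 and 2.37, and their ranges over the arrays 0.33, 0.41 and 0.44, against 5.15 and 0.43 for Gfi1b. Cd14 and Hlf lay under the array medians. Genes whose range was under 50% of that of Gfi1b were not compared. With 6 arrays this describes likeness only.

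The region labels were set beside markers of each side, and none of these passed the threshold. Of 12 axial and somite markers 11 had a negative difference, where 58.0% of all genes did, with a median of -0.27 against -0.06 over all genes. Twist1, a factor of mesenchyme, was at 4.20, 5.71 and 5.46 in ventral arrays 1, 2 and 3, against 6.62, 6.37 and 6.57 in dorsal arrays 1, 2 and 3, without overlap (-1.40 ± 0.35, limma adjusted p 0.435). Foxc2 had -0.50 ± 0.17 and Col2a1 -0.46 ± 0.27. Of 12 ventral mesoderm markers 5 were positive and 7 negative, with a median of -0.06, as over all genes. Foxf2 had -0.71 ± 0.21, Tcf21 0.59 ± 0.31, Hand1 -0.24 ± 0.18 and Hand2 -0.10 ± 0.27.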

How the data were processed

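The deposited values are log2 RMA signals per probe set, made by the authors with Affymetrix Expression Console and RMA, per the submitters' processing notes; the log base was read from the values. Per the labels' protocols, 200 to 1000 pg of RNA per sample was copied and amplified before labelling. Of 25429 probe sets 24675 had 1 gene symbol and 754 were not used here. No genome build is stated for the probe sets.

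The ventral minus dorsal difference was fitted in limma 3.58.1 (R 4.3.3) with lmFit and eBayes, two-sided, Benjamini-Hochberg over all 24675 genes, unfiltered. The replicate number entered as a block because the labels say both regions came from the same embryos, but they do not say that equal numbers mean the same embryo. Deviations from the region means correlated across genes at 0.04, -0.01 and 0.06 within equal numbers 1, 2 and 3. Between unequal numbers the correlations ran from -0.06 to 0.03. These values do not tell whether equal numbers mean the same embryo. An exact permutation test of 3 against 3 that leaves out the replicate block cannot give a p under 0.1, and with the block that limit is higher. P-values reflect only the spread among these samples, which may be partly technical, and 6 arrays limit the precision. In simulated data on 24675 genes for this comparison the fit recovered 31.6% of 2-fold and 98.8% of 4-fold changes. The simulated noise was independent between arrays, and each change was added in full to genes drawn at random, whatever their signal. Recovery for dim probe sets, such as most of the factors, was not tested apart.

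Members and lists were chosen with earlier results of these data known. All 10 members are named, and of each list the 2 genes with the smallest p and the 2 with the highest mean. Listed genes without a row (10 over all lists) were not analysed here. Promoter windows are from RefSeq, GRCm38.p6. Alternatives covered the block, scaling, a filter, the prior variance, array weights and left-out arrays. Python 3.11.15, pandas 2.3.3 and matplotlib 3.10.9 were used for tables and figures.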

Additional observations from a re-analysis of the deposited data

How the results depend on the processing

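Under all 15 alternatives, the fit with no replicate block included, 0 of the factors tested passed the threshold. The lowest adjusted p of any factor was 0.361, for Spi1 without dorsal replicate 1 and with no replicate block. With no replicate block limma called 1 gene over the whole array, against 0 with it. Leaving out both arrays of one number, or single arrays with no replicate block, gave 0 to 5 genes over the array, among them 3 each without ventral replicate 1, ventral replicate 2 or dorsal replicate 3. The block changed no other call. Gata2 was positive in all 16 settings (0.09 to 0.48), and Tal1 (-0.63 to -0.32) and Gfi1b (-0.31 to -0.17) were negative in all 16. Spi1 (-0.49 to -0.24) and Mecom (-0.21 to -0.05) were negative in the 15 settings that tested them. With arrays left out, 5 differences changed sign without passing the threshold: Lyl1 (-0.34 to 0.08) and Gfi1 (-0.18 to 0.27) without both arrays numbered 1 or without dorsal replicate 1, Lmo2 (-0.70 to 0.15) without both numbered 2 or without dorsal replicate 2, Runx1 (-0.51 to 0.0035), Lyl1 and Myb (-0.20 to 0.24) without both numbered 3, Lyl1 and Myb without dorsal replicate 3, and Myb without ventral replicate 3. Median centring and cyclic loess changed no sign among the factors. The filter on genes under the median left 5 of the factors. With the 99th percentile of receptor genes in place of the 95th, 0 factors exceeded it in all arrays, against 1, Gfi1b. Signals near the array medians limit what can be seen, and detection calls were not used here.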
